A study of Mus musculus with 54 samples.

Results

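The respiratory chain of the inner mitochondrial membrane was followed in the mouse mammary gland through the probe sets of its nuclear-encoded subunit genes. The members were all probe sets annotated to exactly 1 gene symbol of the Nduf (a, b, c, s and v), Sdh (a to d), Uqcr, Cyc1, Cox4 to Cox8 and Atp5 families, without Cox7a1 and Cox8b, whose 3 probe sets the rule left out. This gave 97 of the 12488 probe sets on the array, for 70 genes. Complex I had 38 probe sets of 29 genes, complex II 4 of 4, complex III 9 of 8, complex IV 20 of 13 and complex V 22 of 14. A further 4 probe sets belonged to Ndufaf1 and Ndufaf4, which the name pattern takes in but which are assembly factors of complex I, not subunits, and they were kept apart. Another 10 probe sets of these families carried several symbols and were not used here, and Ndufa4, Uqcrfs1, Atp5b and Atp5g3 were not analysed here.

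The series profiled total RNA of the inguinal mammary gland, freed of its lymph node, on 54 single-colour oligonucleotide arrays. Each array held 1 gland of 1 mouse, and 3 mice (A, B and C) were taken at each of 18 time points. Virgin mice were 6, 10 or 12 weeks old. Pregnant mice were taken on days 1, 2, 3, 8.5, 12.5, 14.5 and 17.5, lactating mice on days 1, 3 and 7, and glands in involution on days 1, 2, 3, 4 and 20. Mating took place at 12 weeks of age, the morning of the plug counted as day 0.5, and involution was started by taking the pups away after 7 days of lactation. No group carried an allele or a drug treatment in the labels, and the labels do not name the strain.

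Electrons from NADH enter the chain at complex I and those from succinate at complex II, which is also an enzyme of the tricarboxylic acid cycle. Both hand them through ubiquinone to complex III, from which cytochrome c carries them to complex IV, where oxygen is reduced. Complexes I, III and IV pump protons across the inner membrane, and complex V, the ATP synthase, uses their return to make ATP. Complex II is encoded wholly in the nucleus, while the other complexes also contain subunits of mitochondrial DNA. In the mammary gland the secretory epithelium of lactation makes milk fat, protein and lactose, and the adipocytes, stroma and blood cells of the gland have mitochondria of their own. In bulk tissue, fewer cells of a type and less RNA per cell cannot be told apart.

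A probe set was tested if at 1 time point or more its signal reached 22.8 in each of the 3 mice, and signals under 9.4 were set to 9.4, so that a difference from a group with signals at 9.4 is a lower bound on its size. Of the 97 members, 78 passed, for 64 genes: 30 of complex I, 4 of complex II, 9 of complex III, 13 of complex IV, 20 of complex V and 2 of the assembly factors. The 19 dim probe sets were the only ones for Atp5j2, Cox5a, Cox8a, Ndufa12, Ndufc2 and Ndufs4, whose highest single signal was 48.8, for Ndufa12 on lactation day 7. These 6 genes had only probe sets too dim to test, which says nothing of their RNA. Differences are of mean log2 signal, with the standard error (SE) and adjusted p of limma's moderated test fitted over the 8640 probe sets kept, with Benjamini-Hochberg adjustment and a threshold of 0.05.

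The arrays had been scaled to a common level, with trimmed means of 100.05 to 100.07 and medians of 31.8 to 44.6. Between 20.5% and 29.7% of an array's signals lay under 9.4. Over probe sets, pairs of arrays from 1 time point had correlations of 0.875 to 0.975, and 37 of the 54 arrays were closest to an array of their own time point. All 8 milk protein probe sets rose between virgin mice of 12 weeks and lactation day 7, and their summed signal went from between 1495 and 2086 to between 98420 and 100600. The white adipocyte markers were detected too, with 12 probe sets kept. How far the mix of cells moved the members was not tested.

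Promoter sequence is shown here as a description of the members' genes, and its relation to their RNA levels was not tested. RefSeq windows of 300 bases (250 before to 50 after a start, GRCm38.p6) were matched by gene identifier for 56 of the 70 genes. They were searched on both strands for 3 motifs, none of which contains another. CGCATGCG is the palindromic core bound by NRF1. CCGGAAG, which reads CTTCCGG on the other strand, is a core of ETS factors such as GABP. AAGATGG, which reads CCATCTT there, is a core of YY1. All 3 factors are known regulators of nuclear genes for mitochondrial proteins. The NRF1 core stood in the windows of 9 of the 56 genes (16.1%), against 2.07% of all 27025 genes and 1.87% of all 32851 windows of the same length. The ETS core stood in 16 genes (28.6%) against 9.93% of all genes and 8.86% of windows, and the YY1 core in 8 genes (14.3%) against 7.28% and 6.34%. By complex, the NRF1 core was in 1 of 26 matched genes of complex I, 0 of 3 of complex II, 2 of 4 of complex III, 1 of 9 of complex IV, 4 of 12 of complex V and 1 of 2 assembly factors. These are the 30 bases around each NRF1 core, in the direction of the gene, with the core in capitals:
Ndufa8, chr2:36049329-36049358, minus strand: gtcgctggagaCGCATGCGcagatggtacc
Ndufaf4, chr4:24897960-24897989, plus strand: ccagatgtctgCGCATGCGcctgtgcggaa
Uqcrc1, chr9:108936668-108936697, plus strand: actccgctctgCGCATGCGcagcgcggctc
Uqcr11, chr10:80406808-80406837, minus strand: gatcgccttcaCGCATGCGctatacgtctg
Cox6a1, chr5:115349101-115349130, minus strand: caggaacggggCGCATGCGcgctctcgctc
Atp5k, chr5:108434430-108434459, minus strand: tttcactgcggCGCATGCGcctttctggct
Atp5l, chr9:44920963-44920992, minus strand: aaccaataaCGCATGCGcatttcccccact
Atp5g2, chr15:102671070-102671099, minus strand: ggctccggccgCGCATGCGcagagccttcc
Atp5j, chr16:84835105-84835134, minus strand: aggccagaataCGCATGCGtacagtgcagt

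The 250 bases before the start are given for 2 members that differed in opposite directions in lactation, Cox6a1 of complex IV and Sdha of complex II. Capitals mark the NRF1 core and, near the start, the ETS core in Cox6a1. None of the 3 motifs was found in the Sdha window, which says only that these letters are not in it.
Cox6a1, chr5:115348959-115349208, minus strand: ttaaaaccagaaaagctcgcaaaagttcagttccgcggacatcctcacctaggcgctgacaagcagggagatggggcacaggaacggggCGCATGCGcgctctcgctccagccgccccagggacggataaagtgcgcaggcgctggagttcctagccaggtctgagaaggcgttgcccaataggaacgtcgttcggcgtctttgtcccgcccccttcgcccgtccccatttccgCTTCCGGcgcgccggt
Sdha, chr13:74350241-74350490, minus strand: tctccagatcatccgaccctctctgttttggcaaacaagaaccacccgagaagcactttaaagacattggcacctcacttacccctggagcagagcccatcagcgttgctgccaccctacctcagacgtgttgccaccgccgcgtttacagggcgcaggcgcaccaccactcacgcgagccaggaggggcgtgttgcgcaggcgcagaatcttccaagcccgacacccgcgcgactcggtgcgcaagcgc
A match is a description of the sequence and not a binding site. The 2 genes do not stand for a rule: Cox7a2 and Cox7b, which rose in lactation, had no match to the 3 motifs. Atp5k, which was called lower there, had the NRF1 and the ETS core. Whether matches go with the direction of a member was not tested. The ETS matches of complex II were in Sdhb and Sdhd, and the 8 YY1 matches were in 5 genes of complex I and 3 of complex V.

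Over the whole course, the members did not share 1 time point of their lowest or highest mean. Of the 78 members, 71 changed over the 18 time points by limma's moderated F test, as did 88.1% of all probe sets, so that this share is near the background. They were 27 of 30 in complex I, 4 of 4 in complex II, 9 of 9 in complex III, 12 of 13 in complex IV, 18 of 20 in complex V and 1 of 2 assembly factors. The lowest time point mean fell on involution day 1 for 21 of the 78, on involution day 3 for 11 and on virgin week 6 for 11. The highest fell on lactation day 7 for 20, on virgin week 6 for 13 and on involution day 20 for 13. Those of lactation day 7 include several probe sets of 1 gene, Atp5d, and dim ones such as 93788_at of Cox4i1 (mean signal 38.3). The same shares over all probe sets were not counted, so these counts are not a trait of the members.

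The complexes did not follow 1 common course. As a description, each array was given, for each complex, the median over its probe sets of the log2 deviation from that probe set's mean over the 54 arrays. Complex II stood at 0.42 ± 0.07 (SD, n = 3) in virgin mice of 12 weeks, at -0.22 ± 0.04 on lactation day 1, at -0.24 ± 0.03 on lactation day 7 and at -0.58 ± 0.11 on involution day 1. Complex IV went from -0.12 ± 0.04 in virgin mice of 12 weeks to 0.47 ± 0.17 on lactation day 7, and complex V from -0.12 ± 0.05 to 0.38 ± 0.06. For complexes II, IV and V the 3 arrays of lactation day 7 lay outside the range of the 3 of virgin week 12. Complex I was 0.12 ± 0.04 and -0.01 ± 0.15 at these time points, complex III 0.05 ± 0.07 and 0.24 ± 0.24, and in both the arrays overlapped. On involution day 20 complex I was at 0.40 ± 0.10, complex II at 0.42 ± 0.25, complex III at 0.31 ± 0.09, complex IV at 0.23 ± 0.10 and complex V at 0.12 ± 0.17.

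**Figure D1:**
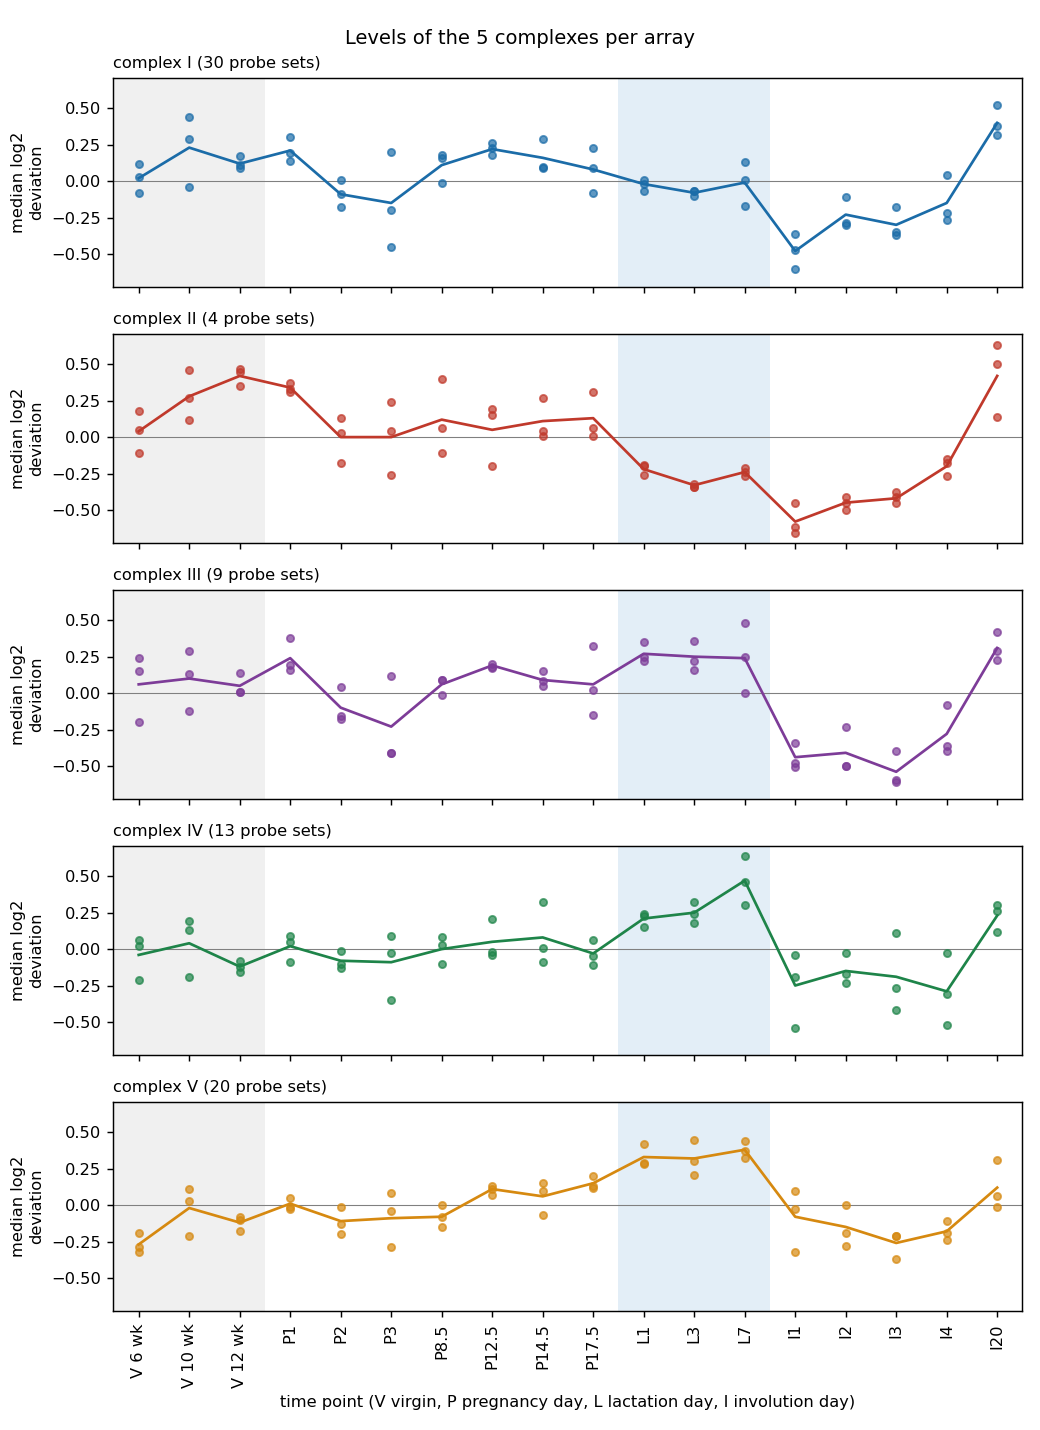
Median log2 deviation of each complex's probe sets from their own mean over the 54 arrays, by time point, with 1 dot per array and a line through the means of 3 arrays; grey marks the virgin time points and blue lactation. Complex II lies below 0 on every array from lactation day 1 to involution day 4, while complexes IV and V lie above 0 on every array of lactation.

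Set against each other within an array, the medians of complexes IV and II changed places. The level of complex IV minus that of complex II was -0.61, -0.47 and -0.55 in the 3 virgin mice of 12 weeks. On lactation day 7 it was 0.66, 0.91 and 0.54, and on involution day 20 it was 0.12, -0.33 and -0.38. It was -0.16 ± 0.07 on pregnancy day 17.5 and 0.43 ± 0.08 on lactation day 1, with opposite signs on all 6 arrays of these time points. Complex V minus complex I was -0.24 ± 0.05 in virgin mice of 12 weeks, 0.07 ± 0.12 on pregnancy day 17.5 and 0.36 ± 0.09 on lactation day 1. It was still 0.40 ± 0.15 on involution day 1, 0.08 ± 0.05 on involution day 2 and -0.29 ± 0.09 on involution day 20. These within-array values describe the probe sets kept and carry no test. The level of complex II is a median over 4 probe sets. Between virgin week 12 and lactation day 7 Sdha and Sdhc were called lower, and Sdhb and Sdhd were not called. Over its members with a mean log2 signal of at least 8, which leave out Sdha, the median difference was -0.10.

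**Figure D2:**
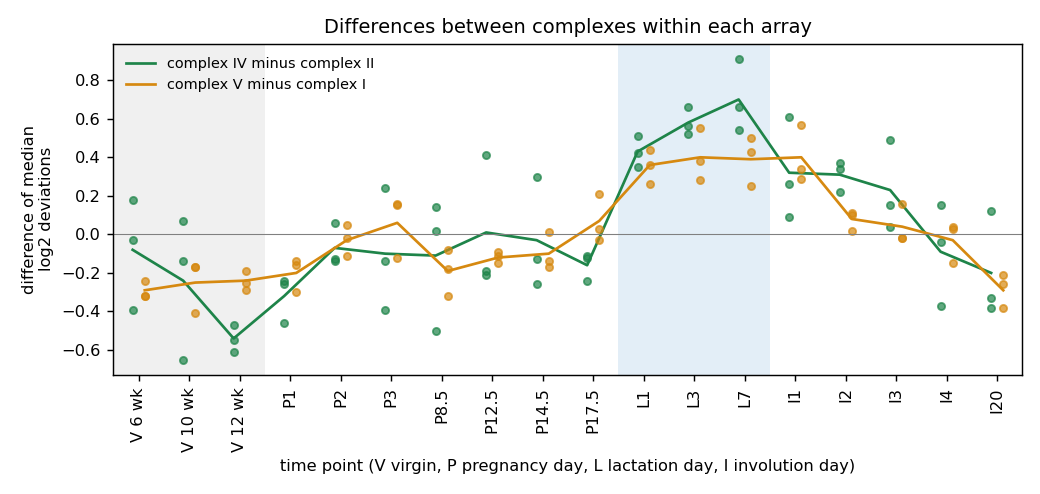
Difference between the median log2 deviations of complexes IV and II (green) and of complexes V and I (orange) within each array, by time point, with 1 dot per array and lines through the means of 3. Both differences are above 0 on every array of lactation and involution day 1, and below 0 on every array of virgin week 12.

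Between virgin mice of 12 weeks and lactation day 7, members of complexes IV and V that were called mostly rose and those of complex II fell. Those of complexes I and III went both ways. Of the 78 probe sets 26 (33.3%) rose and 16 (20.5%) fell, while 24.3% of all probe sets rose and 27.2% fell. The median difference of the members was 0.17, that of all probe sets -0.01. Higher and lower calls numbered 5 and 10 of 30 in complex I, 0 and 2 of 4 in complex II, 2 and 1 of 9 in complex III, 8 and 2 of 13 in complex IV and 11 and 1 of 20 in complex V. In complex I these shares are not far from those of all probe sets, and its median difference was -0.13. The 2 assembly factors were not called.

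In complex I the calls went both ways, and of the core subunits of the arm that takes up electrons Ndufs1, Ndufv1 and Ndufs3 fell, while both probe sets of Ndufv2 were not called (0.19 and 0.27). Ndufs1, the largest iron-sulphur subunit of its peripheral arm, had signals of 400.9, 345.4 and 426.1 in the virgin mice and 232.1, 194.0 and 223.6 on lactation day 7 (log2 difference -0.85, SE 0.21, adjusted p = 0.0008). Ndufv1, which binds NADH, had 1588.4, 1661.2 and 1427.1 against 955.9, 899.0 and 826.8 (-0.80, SE 0.20, adjusted p = 0.00075). In neither did the groups overlap. Ndufs3, another core subunit of that arm, fell by 0.64. Ndufb3, an accessory subunit of the membrane arm, went from 548.5, 642.0 and 780.1 to 295.8, 249.1 and 218.7, the largest fall in complex I (-1.36). Ndufa5, Ndufab1 (the mitochondrial acyl carrier protein), Ndufb10, Ndufa13 and probe set 96915_f_at of Ndufa3 also fell, by 0.49 to 0.63. Other membrane arm subunits rose. Ndufb8 had 1016.4, 907.7 and 905.6 in the virgin mice and 1623.8, 1655.2 and 1496.1 in lactation, without overlap (0.76, SE 0.21, adjusted p = 0.003), and Ndufb6 and Ndufb7 rose by 0.58 and 0.56. The probe sets of Ndufb2 were called both ways: 95131_f_at fell by 0.85, while 95132_r_at and 162473_r_at rose by 0.61 and 1.36, and no direction is given for this gene.

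In complex II 1 catalytic subunit and 1 membrane anchor fell, and the other 2 subunits were not called. Sdha, the flavoprotein that oxidises succinate, had 172.6, 151.1 and 178.5 in the virgin mice and 37.4, 46.0 and 57.5 on lactation day 7. Every lactation array was thus far below every virgin array (-1.85, SE 0.25, adjusted p = 3.5e-08), the largest fall of any member in this comparison. Sdhc, one of the membrane anchors, went from 927.4, 868.9 and 906.6 to 401.6, 450.0 and 397.5 (-1.12, SE 0.21, adjusted p = 3e-05). The other anchor, Sdhd, was at 1102.4, 951.2 and 1126.0 and at 1070.0, 871.3 and 1033.5, with overlap (-0.10, SE 0.15, adjusted p = 0.60). Sdhb, the iron-sulphur subunit, was not called either (0.11, SE 0.15, adjusted p = 0.56), and a p that misses the threshold does not show equal levels.

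In complex III, Uqcrq, a small subunit beside cytochrome b, rose from 2195.8, 2401.2 and 2580.8 to 4686.2, 4583.6 and 4218.3 (0.91, SE 0.16, adjusted p = 9.1e-06). Uqcrh, the hinge protein that helps cytochrome c dock, fell by 0.76 (adjusted p = 0.0022), and its 3 lactation arrays (951.6, 711.5 and 654.0) lay below the virgin ones (1319.0, 1305.5 and 1261.3). The probe sets of Cyc1, cytochrome c1, differed: 162469_r_at rose by 1.48, and 95072_at, at 2665.1, 2310.7 and 2147.6 against 2167.9, 1959.9 and 2139.1, did not pass (0.18, adjusted p = 0.32). The core protein Uqcrc1 was 0.49 higher and missed the threshold (adjusted p = 0.062). The median difference of complex III was 0.16, but -0.22 with quantile normalization, so that its direction depends on the scaling.

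In complex IV the ubiquitous isoforms were among the members that rose. Cox6a1 went from 2721.7, 2532.7 and 2947.7 to 5506.3, 4860.9 and 4699.8 (0.88, SE 0.16, adjusted p = 1.1e-05). Cox7a2 went from 1470.9, 1299.1 and 1574.5 to 3465.7, 2781.3 and 2698.8 (1.04, SE 0.18, adjusted p = 9.2e-06). The 2 groups were far apart in both genes. Cox7b and Cox6c rose by 0.61 and 0.45, and the dimmer Cox6b1 by 1.22. Cox8c, known as a testis isoform, rose from 118.3, 110.5 and 108.0 to 185.7, 245.4 and 288.4 (1.07, adjusted p = 7.6e-07). Cox5b fell by 0.51 (adjusted p = 0.022), and its 3 lactation arrays (835.8, 815.9 and 552.3) lay below the virgin ones (1005.1, 1052.9 and 1018.2). For Cox4i1, probe set 93788_at rose by 1.38 from low signals, and 102124_f_at did not pass (-0.59, adjusted p = 0.16). Cox6b2, another testis isoform, was called both ways by its probe sets, with 1.48 for 160813_r_at and -0.81 for 97352_f_at.

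In complex V some subunits of the head, the stalks and the membrane part rose. Atp5a1, the alpha subunit of the catalytic head, went from 1749.4, 1544.0 and 1690.0 to 2221.2, 2148.1 and 1996.6, a small but separate step (0.35, SE 0.12, adjusted p = 0.012). Atp5l, a subunit of the membrane part, went from 1999.7, 2131.6 and 2248.1 to 3689.3, 3598.0 and 3143.1 (0.71, SE 0.17, adjusted p = 0.00078). Atp5e of the central stalk rose by 1.06, the small proteolipid Atp5mpl by 1.05 and Atp5pb of the peripheral stalk by 1.09, the last with overlapping arrays. Atp5d, also of the central stalk, was called higher by 4 of its 5 probe sets. One of them, 161047_at, was at the floor of 9.4 on all 3 virgin arrays and at 36.6, 35.8 and 67.1 in lactation, at least 4.73-fold higher. This probe set is dim, with a mean signal of 13.3 over the course. It met the filter on lactation day 7, where its mean was highest, so its differences from that day are not independent of the filter. The c-ring gene Atp5g1 was called higher in probe set 161324_r_at (1.57, adjusted p = 0.00012) but not in 96032_at (0.24, adjusted p = 0.62), and Atp5g2, which encodes the same ring, did not pass (0.23, SE 0.18, adjusted p = 0.28). Atp5k, the membrane subunit e, was the only complex V member called lower (-1.03, adjusted p = 0.04), with 65.7, 71.8 and 78.0 in the virgin mice and 45.2, 50.9 and 18.7 in lactation.

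**Figure D3:**
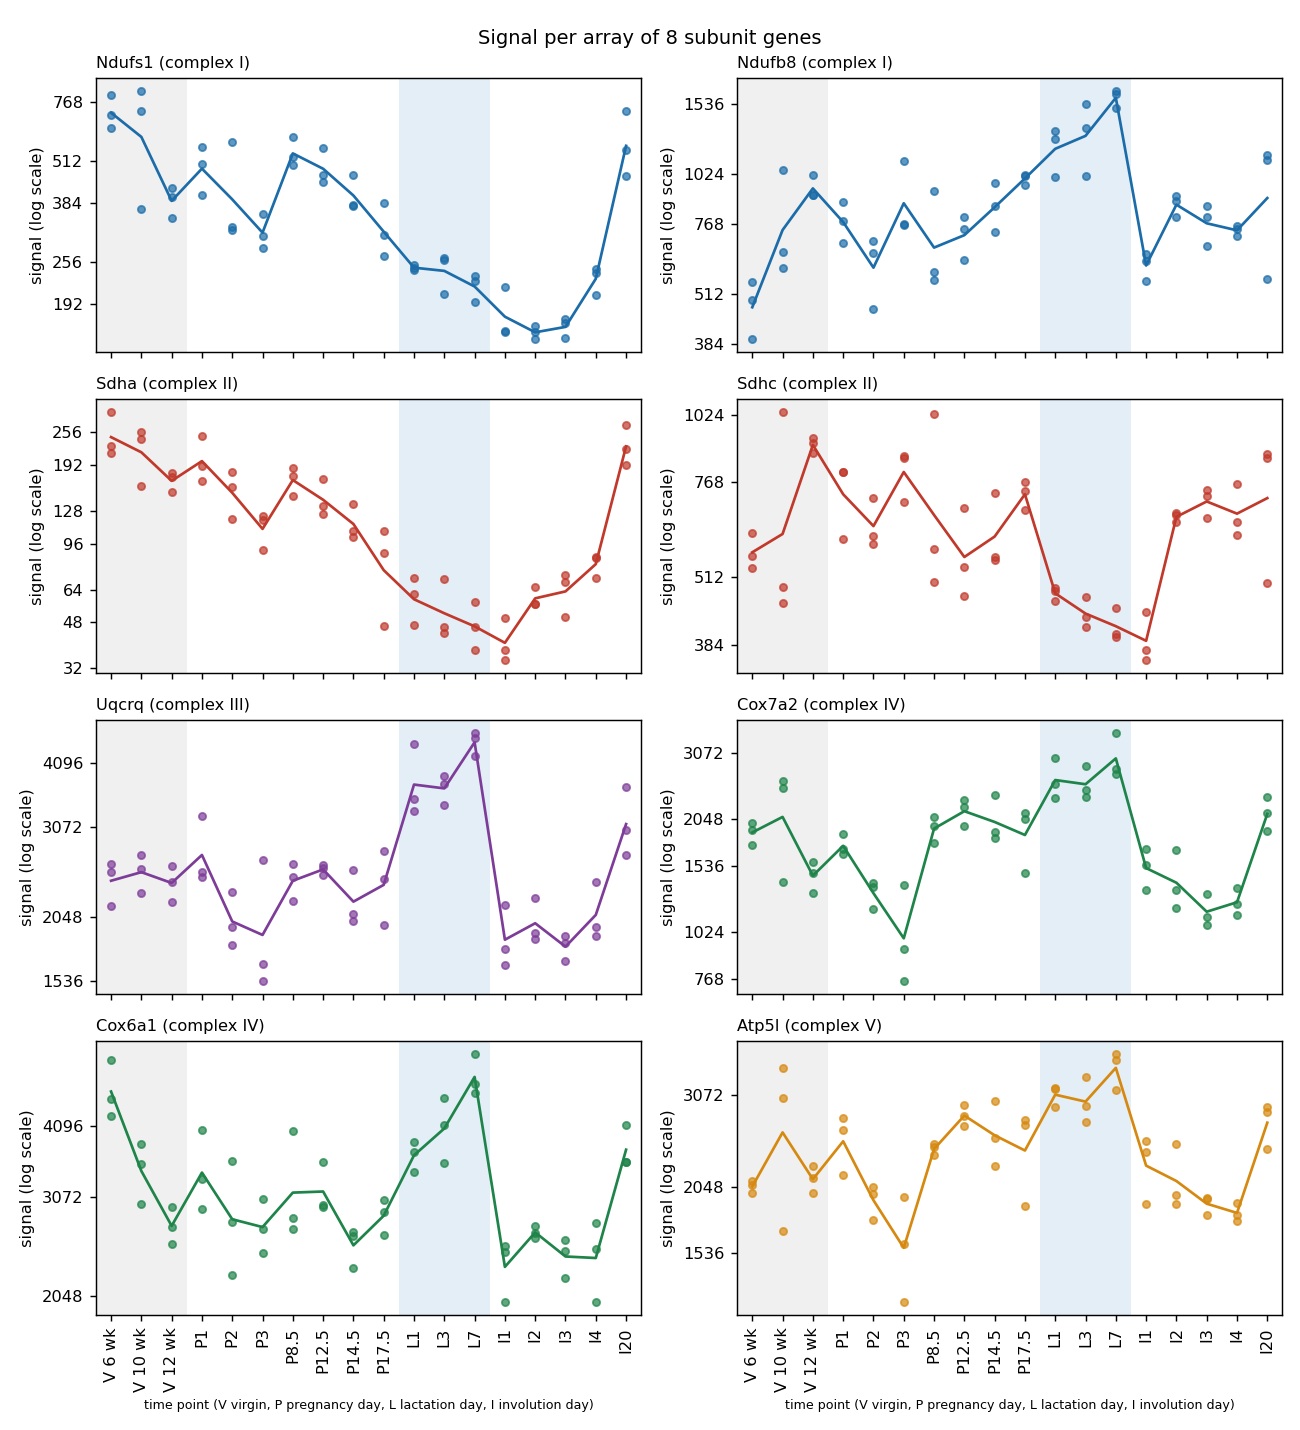
Signal of 8 subunit genes on each of the 54 arrays (log axis), by time point, with 1 dot per array and a line through the geometric means of 3; grey marks the virgin time points and blue lactation. Ndufs1, Sdha and Sdhc are low in lactation, while Ndufb8, Uqcrq, Cox7a2, Cox6a1 and Atp5l have their highest time point mean on lactation day 7.

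With quantile normalization 17 members rose and 17 fell, so that the balance towards rises rests on the scaling. Over 17 settings the median lay between -0.19 and -0.08 for complex I, -0.69 and -0.58 for complex II, 0.10 and 0.69 for complex IV and 0.24 and 0.66 for complex V. Among the 50 members with a mean log2 signal of at least 8, 15 rose and 12 fell, with 4 and 9 of 23 in complex I, 0 and 1 of 3 in complex II, 4 and 1 of 6 in complex IV and 5 and 0 of 9 in complex V. Their median was -0.10 in complex II, without Sdha, and 0.53 and 0.52 in complexes IV and V. Higher calls ranged from 1 to 6 in complex I, 5 to 9 in complex IV and 5 to 12 in complex V over the 17 settings. Those of complex I were 1 with quantile normalization, 3 without array A or B of lactation day 7 and 2 without array A of virgin week 12; those of complex IV were 5 without array B of lactation day 7, and those of complex V 5 with 1 probe set per gene. Over the same interval the summed signal of the white adipocyte markers went from between 13940 and 14840 to between 4449 and 5540, with 9 of 12 probe sets lower and 1 higher, and that of the macrophage markers from between 3797 and 4297 to between 2758 and 3292. The part of these cells in the members' differences was not tested.

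On involution day 1, the day after the pups were removed, members of complexes I, III, IV and V fell, and in complex II Sdhb alone was called. This comparison with lactation day 7 was added after the values had been seen. Of the 78 members 32 (41.0%) fell and 0 rose, with 11.3% of all probe sets lower and 14.1% higher. By limma without adjustment 1 member was higher at a p under 0.05, and 1 was called higher without the filter, with array weights or without array A of lactation day 7. Lower calls numbered 13 of 30 in complex I, 1 of 4 in complex II, 4 of 9 in complex III, 5 of 13 in complex IV and 9 of 20 in complex V. The count in complex I was 8 without array A of involution day 1 or without array A or B of lactation day 7. The median differences were -0.45, -0.20, -0.68, -0.57 and -0.61, and that of all probe sets was -0.02.

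Among single members, Ndufb8 fell to 551.4, 617.8 and 644.2, below any array of lactation day 7 (-1.40, SE 0.21, adjusted p = 1.9e-06), and Ndufv3, a small subunit of the NADH-oxidising module, fell by 1.31. Sdhb, which had not been called between virgin and lactating glands, went from 1137.0, 1175.9 and 981.8 to 569.7, 618.3 and 567.2 (-0.91, SE 0.15, adjusted p = 1.2e-05). Sdha, Sdhc, Ndufv1 and Ndufs1, which were lower in lactating than in virgin glands, were not called: Sdha was at 49.8, 34.3 and 37.4 (-0.21, adjusted p = 0.59), Sdhc differed by -0.09, Ndufv1 by -0.04 and Ndufs1 by -0.30. Uqcrq fell to 1651.9, 1771.5 and 2163.8 (-1.28, SE 0.16, adjusted p = 4.5e-08), which gave it the smallest p of the members in this comparison. Uqcr11, another small subunit of complex III, went from 1079.4, 974.6 and 759.4 to 410.3, 256.0 and 381.0 (-1.44, adjusted p = 5.2e-05). In Uqcrq, Uqcr11 and Sdhb the groups were apart on every array.

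In complex IV, Cox6a1 fell to 2448.8, 2003.9 and 2510.0 (-1.12, adjusted p = 4.5e-07), and Cox7a2, Cox7b and Cox6c fell by 0.97, 1.07 and 0.86. In complex V, Atp5o, a link between the head and the peripheral stalk, went from 1592.2, 1341.7 and 1101.5 to 637.8, 644.2 and 694.4 (-1.01, adjusted p = 0.0013), and Atp5a1 fell by 0.63. Atp5k fell by 1.40 with overlapping arrays, from 45.2, 50.9 and 18.7 to 25.6, 9.8 and 9.4. The milk protein probe sets were called neither way (0 of 8), though their summed signal was 46420 to 58040 on involution day 1, and macrophage markers rose in 2 and fell in 2 of 11 probe sets while their summed signal was 8535 to 9652. Luminal epithelium markers rose in 6 and fell in 1 of 12 probe sets (median 0.89), and their summed signal went from between 3751 and 3943 to between 5130 and 6819. The part of these changes in the members' fall was not tested.

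By involution day 4 the levels of the complexes lay close together again, from -0.29 ± 0.25 (n = 3) for complex IV to -0.15 ± 0.17 for complex I, so that their differences from lactation day 7 were unequal. Of the 78 members 35 (44.9%) were lower than on lactation day 7 and 3 (3.85%) higher, against 21.7% and 22.7% of all probe sets, and the median was -0.46 (all probe sets -0.03). Higher and lower calls were 1 and 9 of 30 in complex I (median -0.02), 2 and 1 of 4 in complex II (0.18), 0 and 4 of 9 in complex III (-0.51), 0 and 8 of 13 in complex IV (-0.92) and 0 and 11 of 20 in complex V (-0.51). Both assembly factors fell, Ndufaf1 by 0.77 and Ndufaf4 by 0.82. The complex II median is over 4 members that went both ways: it lay between 0.12 and 0.22 over 17 settings, but was -0.33 over the 3 with a mean log2 signal of at least 8, which leave out Sdha. The complex IV median lay between -0.95 and -0.43 and that of complex I between -0.16 and 0.01, and without array B of lactation day 7 2 members of complex II were lower.

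The members that rose by involution day 4 were Sdha, Sdhc and probe set 95131_f_at of Ndufb2, whose other 2 probe sets fell. Sdha reached 84.6, 71.1 and 85.4 (0.79, SE 0.25, adjusted p = 0.0081) and Sdhc 763.8, 647.4 and 613.2 (0.69, SE 0.21, adjusted p = 0.0077), each above its 3 lactation arrays. Sdhb remained lower than in lactation (-0.56, adjusted p = 0.0026) and Sdhd did not pass (-0.33, adjusted p = 0.062). Cox7a2 fell to 1215.8, 1335.3 and 1136.7 (-1.27, adjusted p = 3.3e-07) and Uqcrq was at 1959.3, 2401.9 and 1878.3 (-1.12, adjusted p = 3.2e-07), both below every lactation array. Atp5e fell by 1.59, Atp5l by 0.92 and Ndufb8 by 1.11. Probe set 161047_at of Atp5d was back at the floor of 9.4 on all 3 arrays, at least 4.73-fold lower, and 162473_r_at of Ndufb2 differed by -1.66, also a bound, with 9.4, 22.9 and 9.4 and overlap. Both probe sets are dim, with mean signals of 13.3 and 15.9 over the course. Their highest mean was that of lactation day 7, so these falls are not independent of the filter. White adipocyte markers had a summed signal of 8417 to 10250 on this day and macrophage markers 11510 to 12420, both above lactation day 7, with 8 of 12 and 9 of 11 probe sets higher; their part was not tested.

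**Figure D4:**
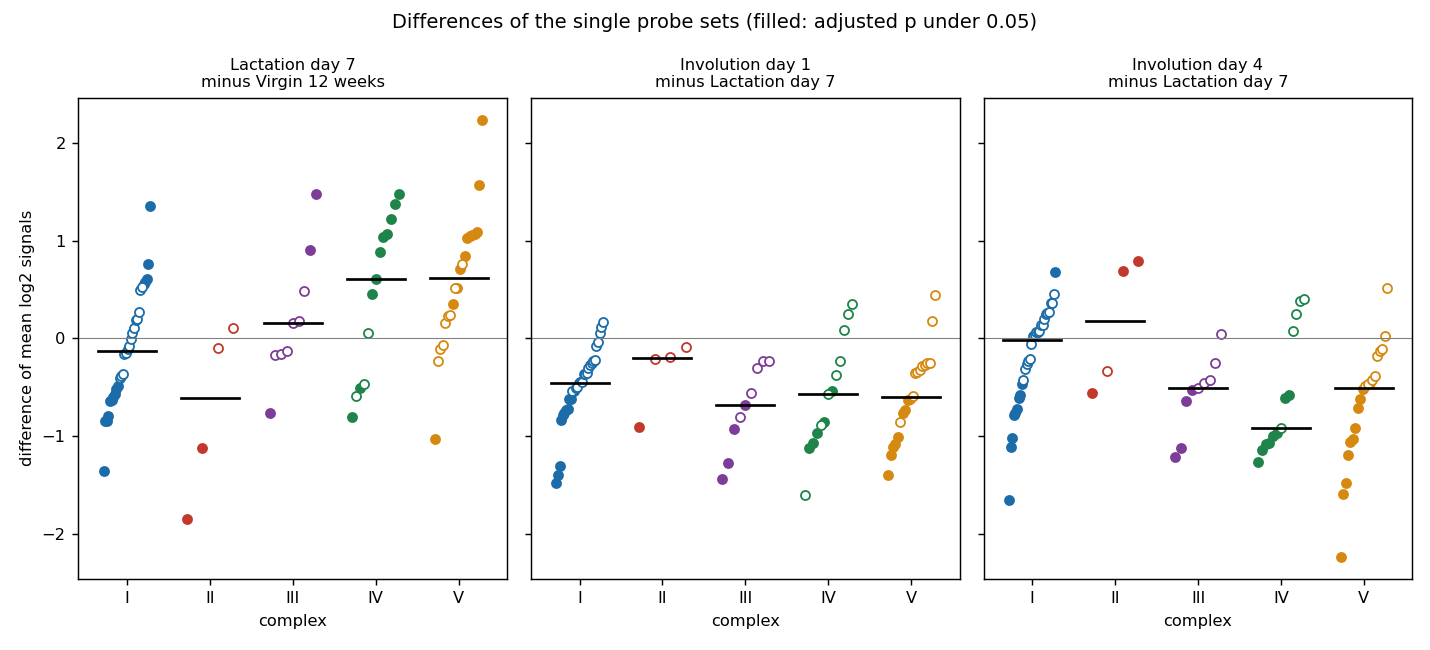
Difference of mean log2 signal for each probe set by complex, in 3 comparisons, with filled dots for an adjusted p under 0.05 and a bar at the median of the complex. Complexes IV and V lie mostly above 0 in lactation and below 0 on both involution days, while Sdha and Sdhc of complex II lie below 0 in lactation and above 0 on involution day 4.

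The comparisons with lactation day 7 share its 3 arrays, and those with virgin week 12 share theirs, so that the reversal of a member between them is no independent result. Side by side, Sdha differed by -1.85 between virgin and lactating glands and by 0.79 between lactation and involution day 4, Cox7a2 by 1.04 and -1.27, Cox6a1 by 0.88 and -1.07, and Atp5l by 0.71 and -0.92.

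At the start of lactation members were called no more often than probe sets at large. Between pregnancy day 17.5 and lactation day 1, 7 members (8.97%) rose and 7 (8.97%) fell, against 10.1% and 13.2% of all probe sets. By limma without adjustment 15 were higher and 14 lower at a p under 0.05. Uqcrq rose from 2432.6, 2759.1 and 1975.3 to 3300.8, 4461.7 and 3479.9 (0.65, adjusted p = 0.0029) and Cox8c from 191.2, 130.8 and 152.2 to 292.7, 268.5 and 262.3 (0.81, adjusted p = 0.00036). Ndufb6, 161324_r_at of Atp5g1, Atp5pb, 160813_r_at of Cox6b2 and 94279_at of Atp5d were the other rises, at 0.49 to 1.66. Cox7a2l, which binds complexes III and IV together in supercomplexes, had 527.3, 592.4 and 452.4 before and 317.7, 235.1 and 284.0 after birth, without overlap (-0.91, SE 0.16, adjusted p = 4.1e-05). Sdhc, Uqcrh, Ndufa6, Ndufa7, Atp5j and Atp5g2 fell by 0.48 to 0.63. Array C of pregnancy day 17.5 was the lowest of its group for several members, as for Sdha (88.0, 107.2 and 46.4) and Atp5e (970.5, 1141.7 and 262.9). Without it 4 members rose, without array B of that day 1 fell, without array A of lactation day 1 4 fell, and without array B of lactation day 1 3 rose and 2 fell.

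Within lactation, from day 1 to day 7, Cox7a2l rose to 560.2, 318.9 and 353.7 (0.52, adjusted p = 0.042) and 161047_at of Atp5d rose by 1.79. These 2 (2.56%) were the only members called higher, against 2.41% of all probe sets, and 0 were called lower, against 2.88%. By limma without adjustment 8 were higher and 3 lower at a p under 0.05, and no alternative called more than 1 lower. The higher calls are fragile to single arrays: 0 remained without array C of lactation day 1, and 1 without array B of that day or array A or C of lactation day 7. That of 161047_at is also a difference from the day on which this dim probe set met the filter with its highest mean.

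Few members were called at the 1 time point of pregnancy that was tested against virgin mice. Between virgin mice of 12 weeks and pregnancy day 14.5, 3 members (3.85%) rose and 0 fell, against 8.82% and 8.85% of all probe sets. By limma without adjustment 7 were higher and 6 lower at a p under 0.05, and 4 were called lower with quantile normalization and 7 with array weights. The 3 were Cox7a2l, from 365.6, 384.4 and 396.9 to 565.7, 547.6 and 577.7 (0.56, SE 0.16, adjusted p = 0.011); Atp5mpl, from 727.2, 756.3 and 694.3 to 1391.3, 1357.4 and 1320.8 (0.90, adjusted p = 0.034); and Atp5md, a small subunit of the membrane part of complex V, from 1343.5, 1549.4 and 1263.5 to 2631.6, 3623.4 and 2293.5 (1.02, adjusted p = 0.013). In each the groups were apart. Without array B of pregnancy day 14.5 1 member was called higher, and without array C of virgin week 12 or of pregnancy day 14.5 2 and 1 were called lower. The median of all probe sets shifted with the scaling here, from -0.09 as deposited to 0.10 with median scaling, and the member median was 0.08.

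The time point means of Sdha and Ndufs1 were lower late in pregnancy than in its middle, an order that was not tested. Sdha was at 167.0 in virgin mice of 12 weeks, 168.2 on pregnancy day 8.5, 114.1 on day 14.5, 75.93 on day 17.5 and 58.74 on lactation day 1. Ndufs1 was at 389.3, 539.7, 403.9, 314.9 and 245.8 at the same time points. On involution day 3 they stood at 62.95 and 163.5, and on involution day 20 they stood at 226.4 and 568.6. The beta-actin ratio (3′ probe set over 5′ probe set), a measure of RNA or labelling quality, also differed between these time points. Its means were 1.99, 3.01, 2.74, 2.25 and 1.6 from virgin week 12 to lactation day 1, 1.5 on involution day 3 and 2.57 on involution day 20. The part of RNA or labelling quality in this order was not tested.

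Between virgin mice of 6 and 12 weeks as many members rose as fell, 14 each (17.9%), against 17.2% and 12.5% of all probe sets. In complex I 8 rose and 5 fell, in complex II 2 and 0, in complex III 2 and 2, in complex IV 0 and 3 and in complex V 2 and 4. The largest falls were those of Uqcrc2, a core protein of complex III (1957.6, 1723.3 and 1796.7 to 784.0, 803.5 and 843.9, -1.17), Atp5md (-1.14) and Cox7b (-1.10). The largest rises were those of Uqcr11 (407.2, 581.1 and 411.6 to 969.9, 972.5 and 1115.1, 1.14), Ndufa10 (1.01) and 95132_r_at of Ndufb2 (1.00). Cox6a1 and Cox6c fell by 0.79 each, and Sdhb and Sdhc rose by 0.56 and 0.66. The beta-actin ratio (3′ probe set over 5′ probe set), a measure of RNA or labelling quality, was 3.75 ± 0.363 (n = 3) at 6 weeks and 1.99 ± 0.487 at 12 weeks, and with it as a covariate 2 members rose and 2 fell. With median scaling, which moved the median of all probe sets from 0.17 to -0.05, 6 rose and 16 fell. Without array C of virgin week 6, 7 members rose, and without array A of virgin week 12, 9 rose.

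On involution day 20, the latest time point sampled, 1 member was called against virgin mice of 12 weeks, and most others had a higher mean without passing the test. Ndufab1 had 1549.7, 1294.4 and 1219.7 against 917.8, 699.7 and 850.4 (0.72, SE 0.18, adjusted p = 0.018). This is 1.28% of the members, against 1.27% of all probe sets higher, and 0 were called lower, against 1.37%. Positive differences were found in 61 of the 78, with a median of 0.29 against -0.07 over all probe sets. By limma without adjustment 22 members were higher and 0 lower at a p under 0.05. The count of higher calls was 12 with array weights and 0 without array B of virgin week 12.

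The width of the course differed between members of a complex. Over the 18 time point means Sdha spanned 6.15-fold, from 245.7 at virgin week 6 to 39.98 on involution day 1, and Sdhd 1.87-fold. The mean beta-actin ratio was 3.75 at virgin week 6 and 2.09 on involution day 1, and its part in the span of Sdha was not tested. In complex I the widest was Ndufb3 (4.68-fold), and Ndufv1 and 94062_at of Ndufv2 were the narrowest (1.79-fold). In complex III 162469_r_at of Cyc1 spanned 4.47-fold and 95072_at 1.91-fold, so that probe sets of 1 gene gave both ends. In complex V Atp5k spanned at least 8.63-fold, from 114.9 on involution day 20 to 13.31 on involution day 1, where 1 array was at the floor, and Atp5g2 1.55-fold. Over the 18 time point means, the members most like the mean of the other members were 95072_at of Cyc1 (r = 0.92), Sdhb (0.89) and Uqcr10 (0.89), and the least like were Cox7a2l (-0.34), Ndufa10 (-0.32) and 96032_at of Atp5g1 (-0.29). The members share the same 54 arrays and their scaling, and these values are descriptions.

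In complex IV the widest course, 14.8-fold between virgin week 10 (164.7) and lactation day 1 (11.1), was that of Cox6a2, the isoform of heart and skeletal muscle. The lower mean is near the floor and under the 22.8 of the filter, so that this fold is imprecise and at most a bound. Its signals varied widely within a time point: at virgin week 6 they were 9.4, 286.4 and 97.1, with signals of Acta1, skeletal muscle actin, of 9.4, 2561.9 and 730.8 on the same arrays. At virgin week 12 Cox6a2 was at 207.9, 17.3 and 29.1 and Acta1 at 1293.1, 97.4 and 221.7. The array with the highest Cox6a2 was also the one with the highest Acta1 at 17 of the 18 time points. All 12 arrays with Cox6a2 of at least 100 had Acta1 of at least 752.6, and in the 17 arrays with Acta1 under 200 Cox6a2 was at most 29.1. Over the 54 arrays, which share time points, r was 0.83 on the log2 scale. Cox6a2 was not called between virgin week 12 and lactation day 7 (-0.47, SE 1.08, adjusted p = 0.74), nor were any of the 15 skeletal muscle probe sets, whose summed signal was 608.5 to 5538 and 832.9 to 2431.

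**Figure D5:**
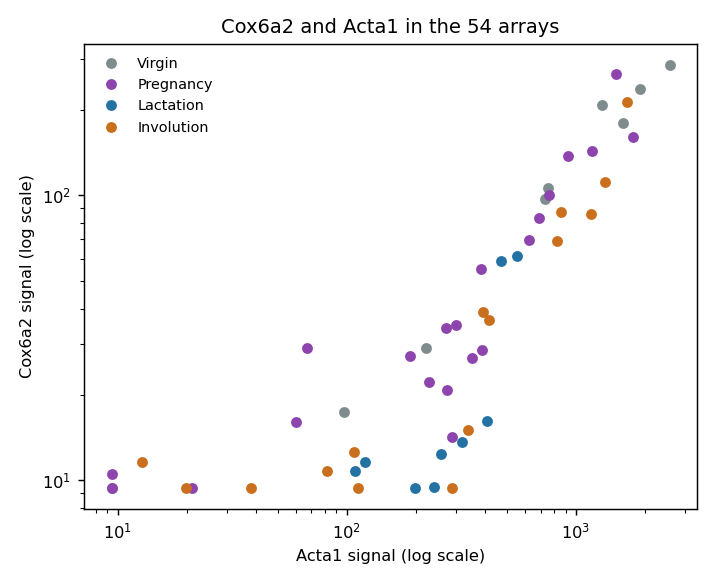
Signal of Cox6a2 against that of Acta1 on each of the 54 arrays (both axes log), coloured by stage. The 12 arrays with Cox6a2 of at least 100 are among those with the highest Acta1 and come from virgin, pregnant and involuting glands.

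The other mitochondrial genes were examined through lists of their pathways. Of 17 probe sets of the tricarboxylic acid cycle, 9 fell and 3 rose between virgin week 12 and lactation day 7 (median -0.49), with Ogdh (-1.34, adjusted p = 1.9e-09), Sucla2 (-1.32) and Dlst (-1.27), parts of the 2-oxoglutarate dehydrogenase and succinyl-CoA steps that precede complex II, as the largest falls. The counts of these lists stand beside 24.3% of all probe sets higher and 27.2% lower in that comparison, and 22.7% and 21.7% by involution day 4. By involution day 4, 4 of the 17 probe sets of the cycle had risen and 6 had fallen (median 0.05). Sucla2 and Dlst had risen by 0.80 and 0.72, and Cs, citrate synthase, had fallen by 1.55. The values given for Sucla2 and Dlst are each those of 1 of the gene's probe sets. Of 17 probe sets of fatty acid beta-oxidation, 14 fell and 1 rose in lactation (median -1.31), and 11 rose and 1 fell by involution day 4. Of 9 probe sets in the list of electron and adenylate carriers, 4 rose and 4 fell in lactation (median 0.07). Of the carriers that exchange ADP and ATP, Slc25a4 went from a mean signal of 945.3 to 183.3 (-2.37, adjusted p = 1.2e-13). Probe set 100618_f_at of Slc25a5 rose by 0.99. No direction is given for this gene, which also has the probe sets 100617_at and 100619_r_at. Among 25 probe sets of the mitochondrial ribosome and import machinery 5 rose and 5 fell (median 0.07), among 11 of the regulators of mitochondrial biogenesis 2 and 2 (-0.26), among 7 of assembly factors 1 and 4 (-0.41) and among 16 of glycolysis 5 and 5 (0.06). Brown adipocyte markers fell in 6 of 8 probe sets and rose in 1, Cidea, which lactating epithelium is also known to express, and Ucp1 was at 9.4, 9.4 and 11.1 on lactation day 7 against 151.9, 120.9 and 135.5.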

How the data were processed

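Total RNA of 54 mammary glands was measured on single-colour arrays, 3 mice at each of 18 time points. The deposited values are linear signal intensity per probe set, which the authors made with MAS5 per the submitters' processing notes; the software version and the target of its scaling are not given in the sources used here. MAS5 summarises each probe set alone and scales each array by its trimmed mean, so that dim signals are noisy and a few very bright transcripts do not enter the scaling. Each array's group is the time point in its label, where the letters A to C stand for different mice.

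Signals under 9.4 (the 25th percentile of all signals) were set to 9.4, and log2 was taken. Probe sets with a signal of at least 22.8 (the 40th percentile) in all 3 arrays of 1 or more time points were kept, 8640 after 66 control probe sets had been left out. One model with a mean per time point was fitted to all of them with lmFit and eBayes (with an intensity trend) in limma 3.58.1 under R 4.3.3, and 7 planned comparisons, 1 added comparison and an F test over all time points were read from it. Adjusted p-values are Benjamini-Hochberg values over the 8640 probe sets, called at under 0.05. The procedure was tested on simulated data. Summaries came from pandas 2.3.3 and numpy 2.4.6 under Python 3.11.15, and figures from matplotlib 3.10.9. Promoter windows are those of RefSeq on GRCm38.p6.

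Probe set symbols come from the platform annotation, and all 97 members have a current RefSeq symbol. Of the members, 36 carry a suffix (_f, _r, _s, _i or _g) that marks probes shared with other transcripts or chosen with relaxed rules, and 20 genes have more than 1 member probe set, which were tested singly. The array number of 3 per time point limits the precision.

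The members, gene lists and comparisons were chosen with earlier results of these data known. Members were named by a rule: in each comparison the 3 largest rises and falls among those called, in each complex the widest and narrowest course, the 3 highest and lowest correlations with the mean of the other members, a fixed list of well-known subunits, and up to 3 genes of each other list. Ndufb6, Ndufb7, Ndufb8, Ndufb10, Ndufs3, Ndufv3, Uqcrq, Uqcrh, Cox6b1, Cox7b, Cox8c, Atp5e, Atp5l, Atp5o and the further called members of a complex were named after their values were seen, as were the arrays and thresholds for Cox6a2 and Acta1. The alternatives were the floor, the filter, quantile and median scaling, 1 probe set per gene, no intensity trend, array weights, the beta-actin ratio as a covariate, the letter as a block, only the arrays compared, and each array left out. A restriction to members with a mean log2 signal of at least 8 was added after the values were seen.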

Additional observations from a re-analysis of the deposited data

How the results depend on the processing

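The counts of members called lower between virgin week 12 and lactation day 7 and between lactation day 7 and involution day 1 stayed within 1.5 times under all 18 alternatives, as did the 71 members changed over time under all 10. With members of a mean log2 signal of at least 8 only, counts were 15 (of 26) higher between virgin week 12 and lactation day 7, 23 (of 35) lower by involution day 4, 9 (of 14) higher between virgin weeks 6 and 12, 2 (of 7) higher at the start of lactation and 1 (of 2) higher within lactation. For lactation day 7 against virgin week 12, higher calls were 17 with quantile normalization and 16 with 1 probe set per gene. For virgin week 12 against 6, higher calls were 6 with median scaling, and higher and lower calls 2 and 2 with the beta-actin covariate. For pregnancy day 14.5, higher calls (3) were 7 with median scaling or array weights and 9 with only the 6 arrays compared, and lower calls (0) were 1 with the higher floor, 4 with quantile normalization, 3 without a filter, 1 with 1 probe set per gene, 7 with array weights and 4 with only the 6 arrays. For lactation day 1, higher calls (7) were 2 with only the 6 arrays, and lower calls (7) were 4 with quantile normalization, 3 with array weights and 2 with only the 6 arrays. For lactation day 7 against day 1, higher calls (2) were 1 without a floor, with median scaling, with 1 probe set per gene, without an intensity trend or with array weights, 4 without a filter and 0 with only the 6 arrays. For involution day 20, higher calls (1) were 2 with quantile normalization, median scaling or the beta-actin covariate, 12 with array weights and 0 with only the 6 arrays. For involution day 1, higher calls (0) were 1 without a filter or with array weights. Beyond what the alternatives themselves change (fewer probe sets or arrays), the cause was not tested.

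With 1 array left out at a time, higher and lower calls ranged from 7 to 15 and 12 to 13 for virgin week 12 against 6, 1 to 2 and 0 to 2 for pregnancy day 14.5, 3 to 9 and 1 to 8 for lactation day 1, 0 to 2 and 0 to 1 for lactation day 7 against day 1, 19 to 26 and 12 to 16 for lactation day 7 against virgin week 12, 2 to 3 and 29 to 33 for involution day 4, 0 to 1 and 0 to 0 for involution day 20, and 0 to 1 and 23 to 32 for involution day 1. With the letter as a replicate block, lower calls for pregnancy day 14.5 were 1, and every other count stayed within 1.5 times; the median correlation of deviations was 0.01 for arrays of the same letter and -0.01 for others, so the letter does not pair the mice. Single members were followed only for the up to 3 largest called rises and falls of each comparison. Of 353 such differences under the other alternatives, 25 lost the call and 0 reversed, and with 1 array left out 29 of 198 lost it and 0 reversed. The other members named in the text were not in this check, and the largest differences are the least likely to reverse. The 3 arrays per time point and, for dim probe sets, the floor limit what could be called.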
